A study of Rattus norvegicus with 9 samples.

Results

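The livers of cirrhotic rats given a saline injection were compared, gene by gene, with the livers of healthy rats, using RNA sequencing of whole tissue. All animals were wild-type Sprague-Dawley rats aged 5 months. The normal group (3 libraries) had received neither carbon tetrachloride (CCl4), a toxin that hepatocytes activate and that is used to cause cirrhosis, nor transplanted cells. The PBS group (3 libraries) came from rats with cirrhosis injected with phosphate-buffered saline, and a further group (3 libraries) came from cirrhotic rats that were given HepLPCs of rat origin, progenitor-like cells made from hepatocytes. The comparison used 6 of the 9 libraries for its contrast, and all 9 for the estimate of spread. Since the normal rats are labelled as untreated, what the toxin did and what the saline injection did cannot be told apart. The dose and duration of CCl4 are not given in the sources used here. The labels number 3 samples per group but do not state that they are separate animals, and the p-values therefore reflect only how far these samples spread, which may be in part technical.

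Cirrhosis is the end stage of repeated liver injury. Stellate cells turn into myofibroblasts and lay down collagen, bands of scar divide the tissue into nodules, and bile duct epithelium expands in the ductular reaction. Hepatocytes that survive divide to replace lost mass, and in chronically injured rat liver some of them switch on detoxifying enzymes that are nearly silent in the normal adult, a state first described in preneoplastic foci.

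Levels are given as RPKM, reads scaled by gene length and by library depth, so they can be compared between genes. Of 40154 gene rows, 11124 had at least 1 RPKM in 3 or more of the 9 libraries and were tested. Changes are log2 fold changes, PBS minus normal, on the log2(RPKM + 1) scale, with their standard error (SE). A gene was called higher or lower at a Benjamini-Hochberg adjusted p under 0.05 from limma, over all tested genes. Recovered depth lay between 17.4 and 21.8 M reads per library. PBS replicate 1 and HepLPC replicate 2 stood apart: over 10295 genes, the longer a gene the lower it lay in them relative to its group (Spearman correlation of the deviation with length -0.549 and -0.513). In the other 7 libraries this correlation lay between -0.141 and 0.407. Counts are therefore given also without these libraries. A low RPKM in this table does not show that a gene was silent, since Rpl35a, a ribosomal protein gene that every cell uses, was listed at 0 in all 6 libraries.

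The 7 marker genes chosen for the comparison separated the groups in every library. Col1a1, a chain of the type I collagen of scar, was at 0.353, 0.181 and 0.248 RPKM in normal replicates 1 to 3 and at 3.62, 10.2 and 7.72 RPKM in PBS replicates 1 to 3. Mgp, matrix Gla protein, which holds back calcification, was at 9.95, 7.70 and 7.91 RPKM in normal and at 137, 197 and 170 RPKM in PBS livers. No value of either gene overlapped between the groups. Krt19, a keratin of bile duct cells, was at 0.327, 0.898 and 0.709 RPKM and then at 5.53, 31.3 and 10.9 RPKM, with the highest value in PBS replicate 2. Gstp1, a glutathione transferase, was at 18.3, 17.1 and 14.6 RPKM in normal and at 714, 205 and 1362 RPKM in PBS livers. Aldh3a1, an aldehyde dehydrogenase, was listed at 0.0877, 0 and 0.0815 RPKM in normal livers (3, 0 and 3 reads) and at 75.8, 20.5 and 109 RPKM in PBS livers (2318, 725 and 3703 reads). For both enzymes PBS replicate 2 was the lowest of its group, the reverse of Krt19. The 2 hepatocyte markers went down. Cyp2c11, a cytochrome P450 of male rat liver, was at 1395, 1047 and 1077 RPKM in normal and at 258, 597 and 183 RPKM in PBS livers. Apoa4, an apolipoprotein made by liver and gut, was at 922, 733 and 680 RPKM and then at 280, 149 and 101 RPKM. The log2 fold changes were 5.75 for Aldh3a1 (SE 0.57), 5.06 for Gstp1 (SE 0.55), 4.14 for Mgp (SE 0.22), 3.06 for Krt19 (SE 0.47) and 2.61 for Col1a1 (SE 0.32). They were -1.93 for Cyp2c11 (SE 0.38) and -2.25 for Apoa4 (SE 0.38). All 7 passed in limma (adjusted p between 6.36e-05 and 0.0116). They were chosen for this comparison with earlier results known, so their passing is no independent support. It is not set against the 11.3% of all tested genes called in either direction. Col1a1 also reached the level filter only through the PBS libraries, which favours a call. In whole tissue, fewer cells of a type and less RNA per cell cannot be told apart.

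**Figure D1:**
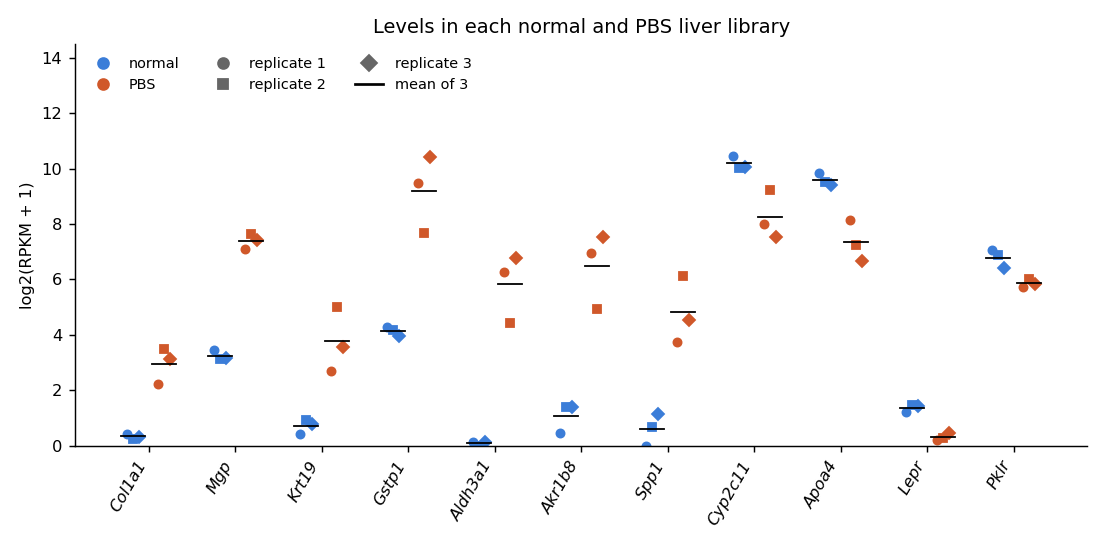
Levels of the 7 markers and 4 further genes on the log2(RPKM + 1) axis, with each of 3 normal (blue) and 3 PBS (orange) libraries as a point shaped by replicate and the mean as a bar. For each of the 11 genes the PBS points lie wholly above or wholly below the normal points, and within the PBS group Gstp1, Aldh3a1 and Akr1b8 have their lowest point in replicate 2 while Krt19 and Spp1 have their highest there.

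Across the genome the cirrhotic liver differed mostly by rises. In PBS livers 1157 genes were higher (10.4%) and 105 lower (0.944%), and the values of the groups did not overlap for 4189 genes (37.7%). The median log2 fold change over all tested genes was 0.18. After rescaling each library by the median of ratios that median became -0.04, with 530 genes higher and 276 lower, so higher genes made up 91.7% of calls before and 65.8% after rescaling. Without the libraries that stood apart 2895 genes were higher and 273 lower, and 1129 of the 1157 and 102 of the 105 were called again in the same direction. With all libraries, 2679 genes were higher and 363 lower at an unadjusted p under 0.05 in limma. The counts of gene lists below, also those of 0, are read against these totals over all 11124 tested genes. The share of rises depended on level: 26 of 649 genes with a mean of at least 100 RPKM were higher (4.01%) and 19 lower (2.93%), while of 6914 genes between 1 and 10 RPKM 768 were higher (11.1%) and 45 lower (0.651%). After rescaling the balance turned at high levels, with 11 higher and 40 lower genes at 100 RPKM and above, and 365 higher and 104 lower between 1 and 10 RPKM. Of the tested genes 678 reached the level filter only through the PBS libraries, and 275 of these were called, which the filter itself favours. Among the remaining 10446 genes 882 were higher and 105 lower. Albumin (Alb), the most abundant liver transcript, was at 53577, 50794 and 68724 RPKM in normal and at 53885, 47139 and 54379 RPKM in PBS livers, and the ranges overlapped.

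**Figure D2:**
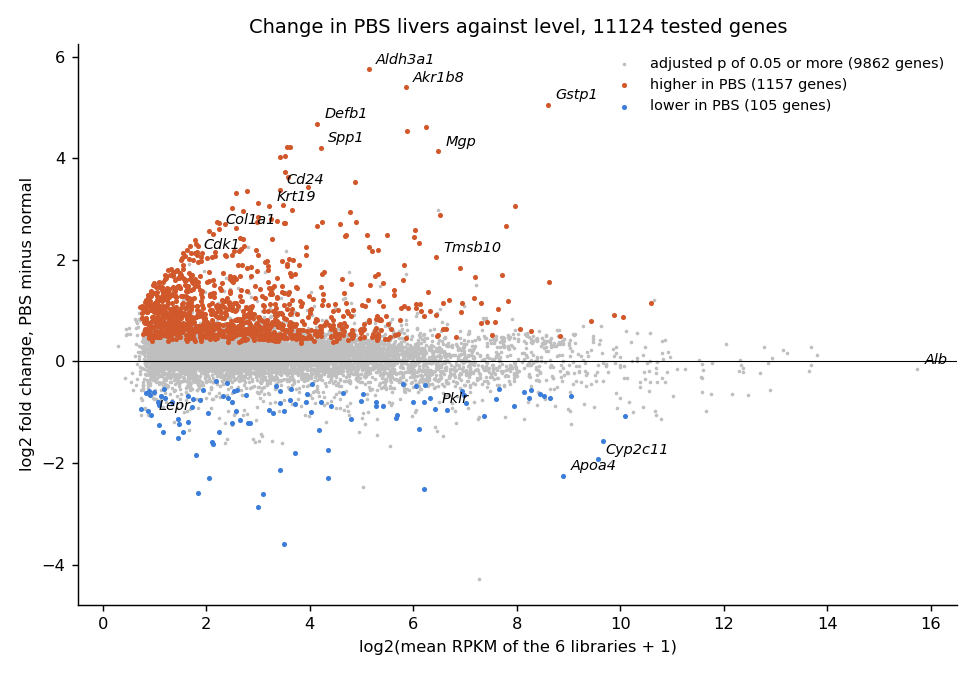
Log2 fold change, PBS minus normal, of each tested gene against the log2 of its mean RPKM + 1 over the 6 libraries, with genes called higher in orange and lower in blue. The 1157 rises lie mostly at low and middle levels, whereas the 105 falls include abundant genes such as Cyp2c11 and Apoa4, and Alb lies near 0.

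The enzymes that mark preneoplastic rat hepatocytes had the highest median change of the gene lists examined with at least 5 tested members. The list holds Gstp1 and Aldh3a1, markers chosen for this comparison, so its rank is in part built in. The log2(RPKM + 1) scale also understates the change of lists of low genes. Of 10 such genes 9 were tested, all 9 were higher, and their median log2 fold change was 3.06. Of these, 3 reached the filter only through PBS libraries, and the 6 others were all higher too. After rescaling 8 stayed called, and without the libraries that stood apart all 9. Besides Gstp1 and Aldh3a1, Akr1b8, an aldo-keto reductase, was at 0.354, 1.62 and 1.64 RPKM in normal and at 124, 29.2 and 186 RPKM in PBS livers, a log2 fold change of 5.40 (SE 0.63, adjusted p = 0.00102). Ggt1, gamma-glutamyltransferase, which starts the breakdown of extracellular glutathione, was at 0.165, 0.211 and 0.0918 RPKM and then at 12.3, 5.77 and 17.0 RPKM (3.35, SE 0.29, adjusted p = 0.000281). Every PBS library lay far above every normal library for both. Akr7a3, an aflatoxin aldehyde reductase, began from a substantial level: 89.2, 46.6 and 31.0 RPKM in normal and 472, 311 and 538 RPKM in PBS livers (3.06, SE 0.36). Nqo1, a quinone reductase, was at 18.6, 29.7 and 12 RPKM and then at 135, 89.6 and 259 RPKM (2.89, SE 0.53). Abcc3, an export pump for conjugates on the blood side of the hepatocyte, was at 0.206, 0.377 and 0.326 RPKM and then at 5.87, 5.82 and 12.2 RPKM (2.71, SE 0.29). Ephx1, microsomal epoxide hydrolase, changed least, from 726, 758 and 489 to 1213, 1072 and 1375 RPKM (0.91, SE 0.21, adjusted p = 0.0257), and its call was lost after rescaling (adjusted p = 0.125). The same order of PBS libraries was not particular to these enzymes. Among the genes with the largest rises outside the list, Defb1 had it, and so did others, among them Car2, Ccl21, Pcp4 and Tubb6. Serpinb1a shared only the lowest place of replicate 2, and Spp1, Lcn2 and Cd24 were highest in that replicate. Defb1, a beta-defensin, was listed at 0.253, 0 and 0 RPKM in normal and was at 41.0, 8.91 and 49.9 RPKM in PBS livers. Serpinb1a, a protease inhibitor, was at 1.51, 2.32 and 2.10 RPKM and then at 224, 12.4 and 105 RPKM.

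The stretch before the start of 2 of these genes is shown because each holds the letters searched for, TGANNNNGC, the core of the antioxidant response element to which the transcription factor NRF2 binds with small MAF proteins. Sequences are from RefSeq, build GRCr8, and cover the 200 bases before the start, 5′ to 3′ on the gene's strand, with the match in capitals. Gstp1 lies on the minus strand (chr1:210769706-210769905) with its match at position -61, and Akr1b8 on the plus strand (chr4:63964221-63964420) with its match, on the opposite strand, at position -70, counting the base before the start as -1.
Gstp1: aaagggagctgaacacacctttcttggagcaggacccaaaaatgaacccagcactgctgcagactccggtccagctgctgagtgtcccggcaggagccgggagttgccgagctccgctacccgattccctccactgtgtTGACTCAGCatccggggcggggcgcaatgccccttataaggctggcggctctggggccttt
Akr1b8: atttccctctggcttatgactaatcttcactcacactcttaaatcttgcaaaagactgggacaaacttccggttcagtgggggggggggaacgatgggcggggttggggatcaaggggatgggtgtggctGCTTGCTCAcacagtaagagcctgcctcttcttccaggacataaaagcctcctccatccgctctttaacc
The match was in 4 of the 8 listed genes found in the promoter table (windows of 250 bases before to 50 after the start, both strands), and in 40.5% of all 33469 promoters of the table. The share in these genes is thus near that of all promoters, and the match is a description of the letters, not of a bound site.

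Conjugation enzymes in general moved less uniformly. Of 25 tested phase II genes 8 were higher and none lower, with a median of 0.31, and 3 stayed called after rescaling. The filter was reached only through PBS libraries by 2 of these genes (1 called, Ugt2b7), and 7 of the 23 others were higher. Gstm1, an abundant mu-class glutathione transferase, rose from 1066, 934 and 869 RPKM to 2288, 1669 and 2461 RPKM (1.15, SE 0.19, adjusted p = 0.00491), whereas its relative Gstm2 was at 1021, 931 and 1020 RPKM and at 1096, 1004 and 1049 RPKM (adjusted p = 0.735). Gsta3, an alpha-class transferase, was at 21.3, 14.8 and 13.9 RPKM and then at 137, 56.4 and 143 RPKM (2.59, SE 0.46). Ugt2b7, a glucuronosyltransferase, was the most spread of the called members, at 0.0780, 0.0238 and 0.0241 RPKM in normal and at 42.5, 17.5 and 2.33 RPKM in PBS livers (3.74, SE 0.72, adjusted p = 0.011). Reads shared between near-identical transferases or glucuronosyltransferases may be split between them, so single members of these families are uncertain. Gpx2, a glutathione peroxidase better known from the gut, was at 0.149, 0.136 and 0.461 RPKM in normal and at 19.9, 20.4 and 17.7 RPKM in PBS livers (4.03, SE 0.32). Its PBS values lay close together, while its normal values rest on 3, 3 and 10 reads. Gpx2 reached the filter only through PBS libraries, which favours a call. Of 7 tested pentose phosphate genes, the source of NADPH for these reductases, 2 were higher: Pgd, from 40.6, 52.4 and 44.2 to 93.1, 67.4 and 122 RPKM (0.99), and Taldo1, from 77.1, 89.4 and 72.2 to 186, 110 and 184 RPKM (0.97). Neither call of Pgd and Taldo1 held after rescaling (adjusted p = 0.0883 and 0.178).

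Bile duct epithelium was the next group. All 4 tested keratins of the liver and duct list were higher. Krt20 reached the filter only through PBS libraries, which favours a call, and the 3 others were all higher too. Krt19 was a marker chosen for this comparison. Krt8 and Krt18, the pair that hepatocytes and duct cells share, rose by 1.24 (from 84.8, 88.9 and 82.4 to 192, 205 and 210 RPKM) and by 0.75 (from 103, 129 and 118 to 228, 166 and 197 RPKM). The Krt18 call was lost after rescaling (adjusted p = 0.345). Krt19 and Krt20, which normal hepatocytes lack, started near 0 and rose by 3.06 and 2.0. Of 12 tested genes of bile secretion 7 were higher (6 after rescaling, with 1 lower), of which 5 had reached the filter only through PBS libraries. They include genes for the signal and the channels of ductal secretion. Sctr, the secretin receptor, was at 0.307, 0.332 and 0.182 RPKM in normal and at 1.28, 5.07 and 2.17 RPKM in PBS livers (1.47, adjusted p = 0.016). Cftr, the chloride channel it opens, was at 0.0311, 0.107 and 0.0361 RPKM and then at 1.15, 3.22 and 1.77 RPKM (1.47, adjusted p = 0.00283). Aqp5, a water channel, was at 0.317, 0.258 and 0.229 RPKM and then at 3.98, 4.30 and 5.55 RPKM (2.14). All 3 were above every normal library in each PBS library. Car2, a carbonic anhydrase, was at 8.52, 2.70 and 3.32 RPKM and then at 143, 70.9 and 218 RPKM (4.62, SE 0.42), with its lowest PBS value in replicate 2, as for Krt18 and unlike Krt8, Krt19 and Krt20. Tff3, a trefoil peptide of mucous epithelia, went from 0.551, 0.403 and 0.102 RPKM to 1.97, 14.2 and 3.67 RPKM (2.15, adjusted p = 0.0214). The bicarbonate carriers Slc4a2 and Slc4a4, which hepatocytes also express, did not pass (log2 fold changes 0.12 and 0.21, adjusted p = 0.689 and 0.692). Pigr, the receptor that carries immunoglobulin A into bile, was at 1629, 1632 and 1412 RPKM in normal and at 967, 1237 and 1077 RPKM in PBS livers, not past the threshold (-0.51, adjusted p = 0.108) but called lower after rescaling (adjusted p = 0.0268).

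Of 18 tested junction genes 5 were higher. Of these genes 2 reached the filter only through PBS libraries and both were called, and of the 16 others 3 were higher. Epcam, an adhesion molecule of duct and progenitor cells, rose from 8.43, 7.98 and 6.40 to 20.6, 36.8 and 27.1 RPKM (1.73, SE 0.24, adjusted p = 0.00208). The claudins Cldn4 and Cldn7 were at or below 0.209 RPKM in each normal library and reached 1.09, 4.2 and 1.32 RPKM and 2.63, 4.85 and 1.53 RPKM in PBS livers. Gja1, connexin 43, rose from 3.41, 3.56 and 3.76 to 5.71, 11.4 and 9.03 RPKM (1.04). The hepatocyte connexin Gjb1 was at 180, 160 and 168 RPKM in normal and at 138, 156 and 110 RPKM in PBS livers (-0.34, adjusted p = 0.181). Notch and YAP signals are known to guide duct growth. None of 6 tested Notch pathway genes passed in limma (0 called, 1 at an unadjusted p under 0.05), and Hes1, a Notch target, was at 7.84, 5.16 and 9.68 RPKM and at 10.9, 13.8 and 12.4 RPKM (0.67, adjusted p = 0.0872). Of 14 tested YAP and TEAD genes 5 were higher, 2 after rescaling and 11 without the libraries that stood apart. The filter was reached only through PBS libraries by 1 of them, which was called, and 4 of the 13 others were higher. Ctgf and Cyr61, secreted matrix-associated targets of YAP, rose by 2.10 (from 1.93, 2.59 and 1.36 to 15.5, 12.8 and 7.67 RPKM) and by 1.42 (from 3.51, 5.04 and 1.83 to 7.66, 15.6 and 9.31 RPKM). Yap1 itself was at 12.4, 11 and 10.7 RPKM and at 11, 15.8 and 16 RPKM (0.29, adjusted p = 0.363).

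Matrix genes other than the fibrillar collagens were counted by group. Of 9 tested matricellular genes, secreted proteins that bind matrix and steer cells, 8 were higher before and 8 after rescaling, and of the 7 that reached the filter without help of the PBS libraries all 7 were higher. Spp1, osteopontin, was listed at 0, 0.580 and 1.18 RPKM in normal and was at 12.5, 69.5 and 22.1 RPKM in PBS livers (4.21, SE 0.58, adjusted p = 0.00208). The galectins Lgals3 and Lgals1, which bind sugars on matrix and cell surfaces, rose by 2.50 (from 5.66, 10.1 and 5.36 to 47.2, 37.0 and 44.8 RPKM) and by 1.88 (from 2.97, 2.09 and 3.41 to 15.6, 8.14 and 16.7 RPKM). Igfbp7 was tight in both groups, at 39.7, 40.7 and 47.8 RPKM and then at 110, 105 and 116 RPKM (1.36, SE 0.15). Thbs1, thrombospondin, was at 1.38, 0.751 and 0.168 RPKM and at 1.38, 4.76 and 2.11 RPKM, so that the groups met at their edges, and it did not pass (1.04, adjusted p = 0.102). Of 10 tested small proteoglycans and elastic fibre genes 9 were higher, 6 after rescaling. Of the 7 that did not depend on PBS libraries for the filter 6 were higher. Fbln1, fibulin, which links elastic fibres and basement membranes, was at 0.0932, 0.0711 and 0.115 RPKM in normal and at 2.94, 4.45 and 4.78 RPKM in PBS livers (2.19, SE 0.17, adjusted p = 0.000217). Elastin (Eln) rose from 0.573, 0.958 and 0.571 to 2.97, 4.16 and 6.97 RPKM (1.69). The collagen-binding proteoglycans decorin (Dcn) and biglycan (Bgn) rose by 1.89 and 1.14, with biglycan already at 39.8, 37.1 and 43.7 RPKM in normal liver.

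Of 19 tested genes that finish and cross-link collagen 8 were higher, 6 after rescaling and 12 without the libraries that stood apart, with a median of 0.55. Of these genes 4 reached the filter only through PBS libraries and all 4 were called, and of the 15 others 4 were higher. Serpinh1, the collagen chaperone HSP47, rose from 5.63, 5.75 and 6.78 to 15.5, 17.4 and 22.9 RPKM (1.46, SE 0.17, adjusted p = 0.0011). Loxl1, a lysyl oxidase that cross-links elastin and collagen, was at 0.266, 0.206 and 0.418 RPKM and then at 2.29, 4.07 and 3.55 RPKM (1.71, SE 0.18). Plod2, a lysyl hydroxylase that sets the type of collagen cross-link, was at 0.219, 0.312 and 0.266 RPKM and then at 1.79, 2.55 and 2.29 RPKM (1.34, SE 0.16). Pcolce, an enhancer of procollagen cleavage, rose by 1.62, but Bmp1, the protease it assists, was at 17.0, 16 and 20.8 RPKM and at 12.1, 18.3 and 13.1 RPKM (-0.30, adjusted p = 0.363). The cross-linker Tgm2 was at 32.9, 28.8 and 29.2 RPKM and at 36.9, 52.4 and 56.3 RPKM (0.64, adjusted p = 0.0598), and passed without the libraries that stood apart (adjusted p = 0.00256). Of 13 tested basement membrane genes 6 were higher, 12 without these libraries and 4 after rescaling. Of these genes 4 reached the filter only through PBS libraries (2 called), and of the 9 others 4 were higher. Col4a1, a chain of type IV collagen, rose from 3.58, 3.18 and 3.92 to 7.73, 12.6 and 9.34 RPKM (1.24), and the laminin chains Lamb1 and Lamb2 by 1.28 and 0.95. Col18a1, a basement membrane collagen that hepatocytes also make, was at 89.8, 86.4 and 95.7 RPKM and at 82.5, 121 and 105 RPKM (0.16, adjusted p = 0.673). Of 9 tested integrin subunits, the receptors for this matrix, 2 were higher, 4 without the libraries that stood apart and none after rescaling: Itgb1 from 29.5, 28.4 and 26.3 to 38.4, 54.3 and 60.6 RPKM (0.82), and Itga9 by 0.56.

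Genes for cell shape and membrane scaffolds held many of the rises. Of 18 tested annexins and S100 proteins, calcium-binding proteins that attach to membranes, 12 were higher, 8 after rescaling, with a median of 1.31. The filter was reached only through PBS libraries by 1 of them, which was called, and 11 of the 17 others were higher. Anxa2 was at 5.81, 7.17 and 7.28 RPKM in normal and at 46.7, 48.6 and 57.2 RPKM in PBS livers (2.74, SE 0.23, adjusted p = 0.000281). Its binding partner S100a10 was at 12.2, 13.3 and 11.6 RPKM and then at 81.5, 58.8 and 86.6 RPKM (2.50, SE 0.20). S100a6 and S100a11 rose by 2.74 and 2.66, both with their highest value in PBS replicate 2 (49.3 and 40.7 RPKM). Anxa6, already at 31.2, 35.2 and 32.6 RPKM in normal liver, was at 39.9, 40.8 and 40.8 RPKM in PBS livers (0.29, adjusted p = 0.196). All 27 tested actin and tubulin genes had values that did not overlap between the groups, against 37.7% of all tested genes. Of them 15 were called higher, 6 after rescaling and 23 without the libraries that stood apart. Tmsb10, an actin-sequestering thymosin, rose from 27.0, 39.9 and 31.4 to 155, 106 and 155 RPKM (2.05, SE 0.28), and Tubb6, a beta-tubulin, from 0.945, 0.891 and 0.825 to 14.3, 7.67 and 17.4 RPKM (2.84, SE 0.25). Actb, cytoplasmic actin, was at 413, 363 and 373 RPKM and at 511, 574 and 550 RPKM, which did not pass (0.51, adjusted p = 0.0821). Of 25 lysosomal genes 6 were higher, 3 after rescaling, led by Cd63, a tetraspanin of late endosomes (1.55), Ctse (1.49) and Lgmn (1.41), while the abundant cathepsin Ctsb was at 237, 233 and 209 RPKM and at 242, 199 and 200 RPKM. Ctse reached the filter only through PBS libraries, and 5 of the 24 others were higher.

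**Figure D3:**
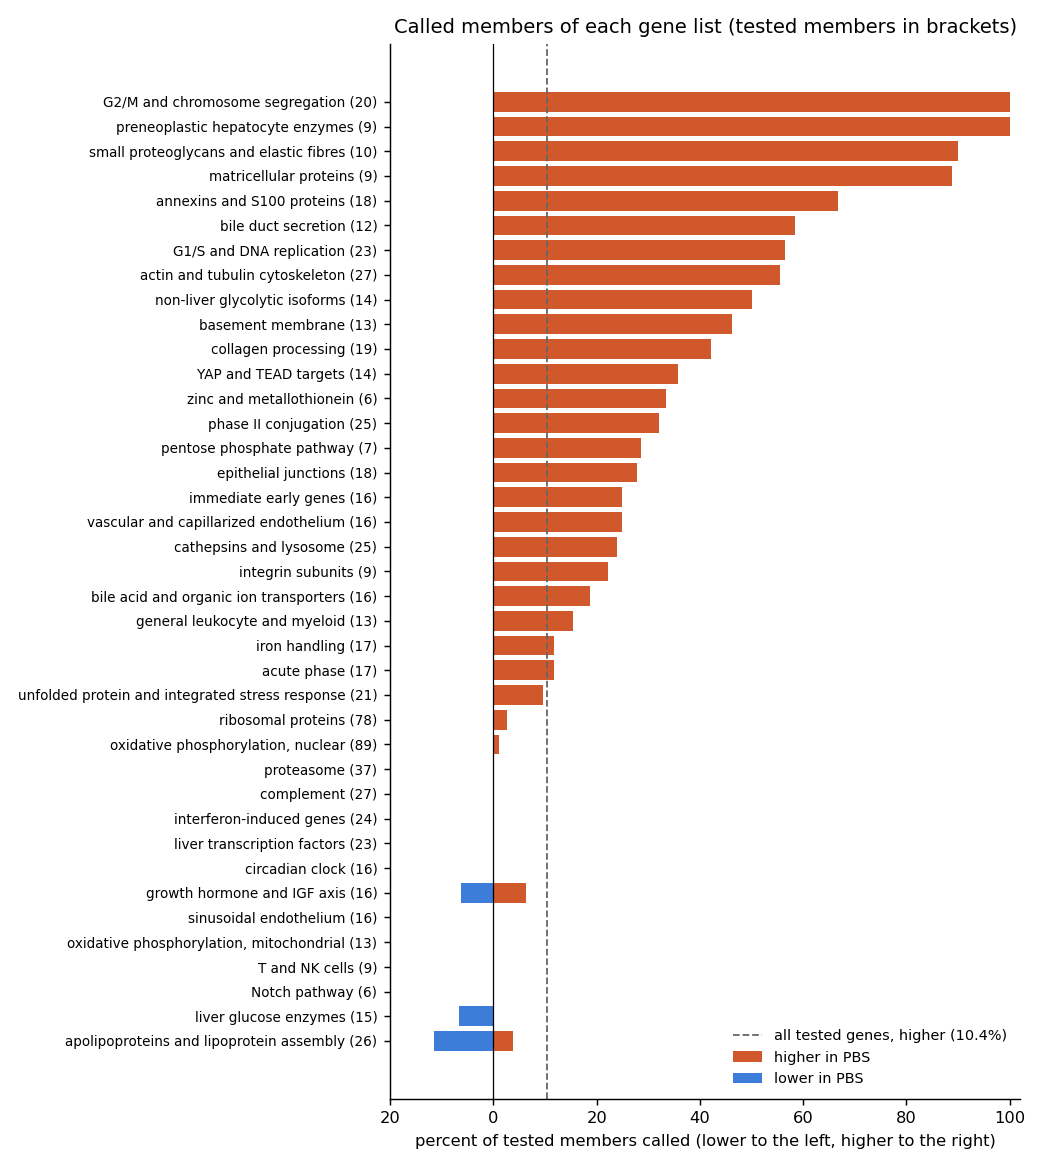
Percent of tested members called higher (right, orange) or lower (left, blue) in PBS livers for each gene list with at least 5 tested members, with the number of tested members in brackets and the share of all tested genes called higher as a dashed line at 10.4%. The preneoplastic hepatocyte enzymes and the G2/M list reach 100%, and the lists for complement, interferon-induced genes, liver transcription factors, the clock and sinusoidal endothelium show no called member.

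Other cell types of the liver were checked by their markers. None of 16 tested sinusoidal endothelial genes passed in limma (0 called, 1 at an unadjusted p under 0.05), 2 were higher without the libraries that stood apart, and their summed level was 186 to 202 RPKM in normal and 197 to 217 RPKM in PBS livers. Lyve1, a hyaluronan receptor of these cells, was at 33.7, 29.6 and 31.6 RPKM and at 32.4, 34.5 and 30.9 RPKM. Of 16 tested genes of vascular and capillarized endothelium 4 were higher, 2 after rescaling, and 6 without the libraries that stood apart. Of these genes 2 reached the filter only through PBS libraries and both were called, and of the 14 others 2 were higher. Over all tested genes 10.4% were higher, and 2895 of 11124 without the libraries that stood apart. Vwf, von Willebrand factor, rose from 1.12, 0.834 and 0.821 to 1.63, 2.96 and 3.32 RPKM (0.89, adjusted p = 0.0218). The pan-endothelial Pecam1 was at 8.20, 10.2 and 8.18 RPKM and at 11, 11.9 and 11.5 RPKM (0.34, adjusted p = 0.149). Among 4 tested lymphatic genes 2 were higher, and all 4 without the libraries that stood apart: the chemokine Ccl21, from 2.69, 4.27 and 3.17 to 64.7, 26.5 and 68.3 RPKM (3.53, SE 0.34), and Mmrn1, from 0.106, 0.146 and 0.0592 to 1.28, 1.37 and 3.11 RPKM (1.35). Mmrn1 reached the filter only through PBS libraries, which favours a call. Pdpn and Tbx1 of the lymphatic list were below the filter. Msln, a mesothelial surface protein, was listed at 0, 0.187 and 0.126 RPKM in normal and was at 3.60, 10.9 and 4.10 RPKM in PBS livers (2.57, SE 0.31), while the mesothelial gene Lrrn4 was at 1.66, 2.11 and 2.20 RPKM and at 3.02, 1.98 and 2.56 RPKM. Msln, too, reached the filter only through PBS libraries. Fabp4, a fatty acid carrier of fat cells, macrophages and capillaries, rose from 1.61, 0.980 and 1.16 to 10.7, 6.73 and 10.2 RPKM (2.17), and Adipoq, Plin1 and Lep, which mark fat cells, were below the filter. No gene of the nerve list reached the filter.

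Markers of blood-derived cells were examined next. None of 9 tested T and NK cell genes passed in limma (0 called, 1 at an unadjusted p under 0.05). Their summed level was 15.9 to 23.4 RPKM in normal and 22.9 to 26.2 RPKM in PBS livers, so the ranges overlapped. Of 10 B and plasma cell genes only Jchain, which joins immunoglobulin chains, reached the filter, and it rose from 2.68, 5.99 and 3.89 to 19.7, 17.6 and 15 RPKM (1.87, SE 0.41, adjusted p = 0.019). Of 13 tested general leukocyte and myeloid genes 2 were higher, Coro1a (0.66) and Spi1 (0.62), 3 without the libraries that stood apart and none after rescaling. Their summed level of 113 to 140 RPKM in normal and 163 to 208 RPKM in PBS livers did not overlap, and the values of 11 of the 13 genes did not overlap either, against 37.7% of all tested genes. Among the 3 tested red cell genes none passed in limma (0 called, 1 lower at an unadjusted p under 0.05), and for 2 platelet genes the values overlapped.

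Inflammatory genes gave few calls. None of 24 tested interferon-induced genes passed in limma (0 called, 2 at an unadjusted p under 0.05, 0 after rescaling). None of 27 complement genes passed either (0 called, 2 higher at an unadjusted p under 0.05), although 2 were lower without the libraries that stood apart and 1 after rescaling. C3 was at 2100, 1716 and 1630 RPKM and at 1644, 2383 and 2161 RPKM. C7, a terminal complement component chosen by its large rise and outside that list, went from 1.45, 1.80 and 1.59 to 19.5, 31.0 and 32.8 RPKM (3.43, SE 0.26). Of 17 tested acute phase genes 2 were higher, near the 10.4% of all tested genes. Lcn2, lipocalin, which binds bacterial siderophores, rose from 0.344, 0.367 and 1.28 to 13.1, 37.3 and 14 RPKM (3.64, SE 0.42, adjusted p = 0.000971). Lbp, which presents endotoxin to CD14, rose from 38.1, 37.9 and 36.7 to 64.1, 78.0 and 97.2 RPKM (1.05, adjusted p = 0.0221). Haptoglobin (Hp) was at 5549, 8039 and 5340 RPKM and at 10076, 6777 and 6224 RPKM, and the pentraxin Crp at 5627, 7444 and 7598 RPKM and at 3307, 6307 and 3765 RPKM. Both overlapped between the groups. Mcpt2, a mast cell protease, was among the 25 largest rises, from 1.01, 2.03 and 0.814 to 14.8, 13.1 and 29.8 RPKM (3.09, SE 0.37). It was named for that rise, and no list of mast cell genes was examined.

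Of the factors that maintain hepatocyte identity none was called, which does not show that their levels were unchanged. None of 23 tested liver transcription factors was called by limma (0 called, 2 higher and 2 lower at an unadjusted p under 0.05, 1 lower after rescaling), but 4 were higher without the libraries that stood apart. Over all 11124 tested genes 11.3% were called in either direction. At an unadjusted p under 0.05 in limma 2679 of them were higher and 363 lower, so a count of 0 among 23 says little. Hnf4a, a master regulator of hepatocyte genes, was at 75.3, 73.8 and 92.8 RPKM in normal and at 82.5, 102 and 94.0 RPKM in PBS livers (0.20, SE 0.17, adjusted p = 0.471). Cebpa was at 79.7, 94.1 and 130 RPKM and at 54.1, 111 and 83.6 RPKM (-0.32, SE 0.26), with overlapping ranges. Hormone signalling changed at single genes. Of 16 tested genes of the growth hormone and IGF axis, Igfbp3, the main carrier of IGF1 in blood, rose from 21.2, 26.1 and 35.9 to 57.5, 65.4 and 83.7 RPKM (1.30, SE 0.21). Lepr, the leptin receptor, was at 1.32, 1.73 and 1.71 RPKM in normal (96 to 138 reads) and at 0.154, 0.199 and 0.374 RPKM in PBS livers (10 to 27 reads), a fall of 1.06 on the log2 scale whose call was kept in all 14 alternatives that could test it. Ghr, the growth hormone receptor, was at 152, 156 and 167 RPKM and at 98.7, 135 and 112 RPKM (-0.46, adjusted p = 0.064), and passed as lower after rescaling (adjusted p = 0.0131). Igf1 was at 311, 279 and 376 RPKM and at 258, 378 and 307 RPKM.

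Of 15 liver enzymes of glucose metabolism 1 fell, 4 after rescaling and 4 without the libraries that stood apart, with a median of -0.36. Pklr, the liver pyruvate kinase, was at 133, 117 and 84.2 RPKM in normal and at 51.6, 64.0 and 56.4 RPKM in PBS livers (-0.93, SE 0.20, adjusted p = 0.0192). Of 14 tested glycolytic isoforms of other tissues 7 were higher, 6 after rescaling. The filter was reached only through PBS libraries by 1 of them, which was called, and 6 of the 13 others were higher. Pkm, the pyruvate kinase of most other tissues, rose from 3.64, 3.24 and 3.19 to 6.74, 11.3 and 6.98 RPKM (1.07, SE 0.18, adjusted p = 0.00538). Aldoa, the muscle-type aldolase, rose from 18.3, 17.4 and 18 to 38.2, 33.7 and 39.3 RPKM (1.01, SE 0.11), and Hk1 from 1.25, 0.971 and 0.757 to 2.98, 3.18 and 5.2 RPKM (1.24). Ldha, a lactate dehydrogenase subunit that this list holds but liver also expresses at a high level, was at 712, 535 and 648 RPKM and at 500, 411 and 335 RPKM (-0.61, adjusted p = 0.0822). Gluconeogenic Pck1 was at 326, 736 and 803 RPKM and at 869, 307 and 478 RPKM, with no separation of the groups.

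Lipoprotein genes held 3 of the falls. Of 26 tested apolipoprotein and assembly genes 3 were lower and 1 higher, 5 lower and none higher after rescaling, and 7 lower and 2 higher without the libraries that stood apart. After Apoa4, Apoc2, the activator of lipoprotein lipase, was at 1352, 1643 and 1388 RPKM in normal and at 820, 865 and 455 RPKM in PBS livers (-1.08, SE 0.25, adjusted p = 0.0256). Pltp, the phospholipid transfer protein, rose from 9.71, 12.7 and 12.8 to 34.7, 19.9 and 27.0 RPKM (1.12), a call lost after rescaling (adjusted p = 0.0624). Apoe was at 7118, 8354 and 6826 RPKM and at 8646, 6756 and 6499 RPKM. Of 16 tested transporters for bile acids and organic ions 3 were higher, Abcc3, Abcc4 (0.72) and Abcg2 (0.65), and after rescaling 1 was higher and 3 lower. Abcc3 reached the filter only through PBS libraries, and 2 of the 15 others were higher. Over all tested genes 10.4% were higher before rescaling. Slc10a1, the main bile acid importer of hepatocytes, was at 368, 368 and 375 RPKM and at 328, 328 and 219 RPKM (-0.37, adjusted p = 0.194).

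Of the further falls, the largest with a gene symbol were those of Lrtm2, Lyc2 and Cela1. Lrtm2, a leucine-rich repeat membrane protein, was at 17.1, 14.9 and 9.30 RPKM in normal and at 1.34, 2.07 and 0.798 RPKM in PBS livers (-2.61, SE 0.37, adjusted p = 0.00238). Lyc2, a lysozyme, was at 31.7, 25.2 and 38.4 RPKM and then at 8.78, 12.1 and 1.26 RPKM (-2.29, SE 0.57, adjusted p = 0.0333). Cela1, an elastase, was at 16.4, 13.6 and 19.6 RPKM and then at 4.15, 2.8 and 2.15 RPKM (-2.13, SE 0.35), and Plekhb1 fell by 1.81 on the log2 scale. The rule that named these genes required that no value overlapped between the groups. Scd, the main liver desaturase, was at 1017, 1648 and 980 RPKM in normal and at 370, 351 and 490 RPKM in PBS livers (-1.56, SE 0.32, adjusted p = 0.0135). Hsd17b13, a lipid droplet enzyme, fell from 217, 198 and 250 to 115, 102 and 96.6 RPKM (-1.08, SE 0.14, adjusted p = 0.00134). Slc27a2, a fatty acid transporter and very long chain acyl-CoA synthetase named for its abundance, fell from 408, 365 and 349 to 227, 241 and 215 RPKM (-0.71). Inmt, an indole N-methyltransferase, fell from 16.1, 27.5 and 32.1 to 7.13, 10.5 and 9.49 RPKM (-1.35), and Hdc, which makes histamine, from 3.24, 2.41 and 2.69 to 0.791, 0.725 and 0.628 RPKM (-1.14). Fgf21, a hormone of the fasting liver, fell from 4.24, 1.83 and 2.75 to 0.268, 1.01 and 0.646 RPKM (-1.24, adjusted p = 0.0291). Irs3, an insulin receptor substrate, was at 2.85, 4.82 and 9.58 RPKM and then at 1.13, 0.913 and 0.971 RPKM (-1.63). Hes6, a transcriptional regulator of the Hes family, fell from 104, 105 and 83.1 to 43.0, 43.4 and 29.4 RPKM (-1.33, SE 0.21). Rgs16, which shortens G protein signals, fell from 3.11, 8.48 and 2.22 to 0.756, 0.173 and 0.320 RPKM (-1.84).

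Of 6 tested genes for zinc and metallothionein 2 were higher. Mt2A, a metallothionein that binds zinc and copper, was at 76.3, 101 and 24.8 RPKM in normal and at 420, 321 and 387 RPKM in PBS livers (2.67, SE 0.41, adjusted p = 0.00368). Its relative Mt1 was at 214, 326 and 102 RPKM and then at 557, 550 and 614 RPKM (1.57, SE 0.38, adjusted p = 0.0274), a call lost after rescaling (adjusted p = 0.0726). Normal replicate 3 was the lowest library for both. Of 17 tested iron genes 2 were higher, near the 10.4% of all tested genes. Without the libraries that stood apart 5 were higher, against 2895 of all 11124 tested genes. The 2 called with all libraries were Tfrc, the transferrin receptor, from 9.91, 8.58 and 12.9 to 21.6, 22.8 and 32.3 RPKM (1.21), and Id1, a target of bone morphogenetic protein signals (1.15). Of 21 genes of the unfolded protein and integrated stress responses 2 were higher, Hsp90b1 (0.64) and Asns (0.83), with 1 left without the libraries that stood apart and none after rescaling. The count of 2 is also near the share of all tested genes, and Asns reached the filter only through PBS libraries. Of 16 tested immediate early genes 4 were higher, led by Egr1, from 1.58, 1.32 and 0.549 to 3.45, 7.81 and 5.74 RPKM (1.61, adjusted p = 0.0156), which alone stayed called after rescaling. The filter was reached only through PBS libraries by 2 of the 16 (1 called), and 3 of the 14 others were higher. None of 16 clock genes passed in limma (0 called, 2 higher and 2 lower at an unadjusted p under 0.05), although 2 were lower after rescaling.

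Cell division genes were raised from very low levels. Of 31 genes of the G2/M phase and chromosome segregation 20 were tested and all 20 were higher, 19 after rescaling. Of these, 13 reached the filter only through PBS libraries, which favours a call, and the 7 others were all higher too. The remaining 11 were below the filter. Cdk1, the kinase that drives entry into mitosis, was at 0.153, 0.174 and 0.673 RPKM in normal (4, 5 and 19 reads) and at 5.80, 4.87 and 3.43 RPKM in PBS livers (136, 132 and 89 reads), with a log2 fold change of 2.10 (SE 0.23, adjusted p = 0.000735). Top2a, which untangles chromosomes, was at 0.272, 0.175 and 0.600 RPKM and then at 3.03, 4.13 and 3.00 RPKM (1.70, SE 0.20). Cdc20, an activator of the anaphase-promoting complex, was at 0.594, 0.414 and 1.18 RPKM and then at 5.03, 3.91 and 3.08 RPKM (1.54, SE 0.21). In all 3 genes normal replicate 3 was the highest normal library. Of 23 tested G1/S and replication genes 13 were higher, 8 after rescaling, and of the 17 that did not depend on PBS libraries for the filter 10 were higher. Rrm2, the regulated subunit of ribonucleotide reductase, rose from 0.357, 0.0363 and 0.387 to 4.35, 4.49 and 3.43 RPKM (2.02, SE 0.17). Pcna, the sliding clamp of DNA polymerase, rose from 13.6, 14.3 and 14.3 to 30.4, 23.2 and 26.5 RPKM (0.87). Ccnd1, cyclin D1, which releases cells into the cycle, was at 7.22, 4.15 and 13.1 RPKM and at 11.3, 20.2 and 16.7 RPKM and did not pass (0.98, adjusted p = 0.102).

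**Figure D4:**
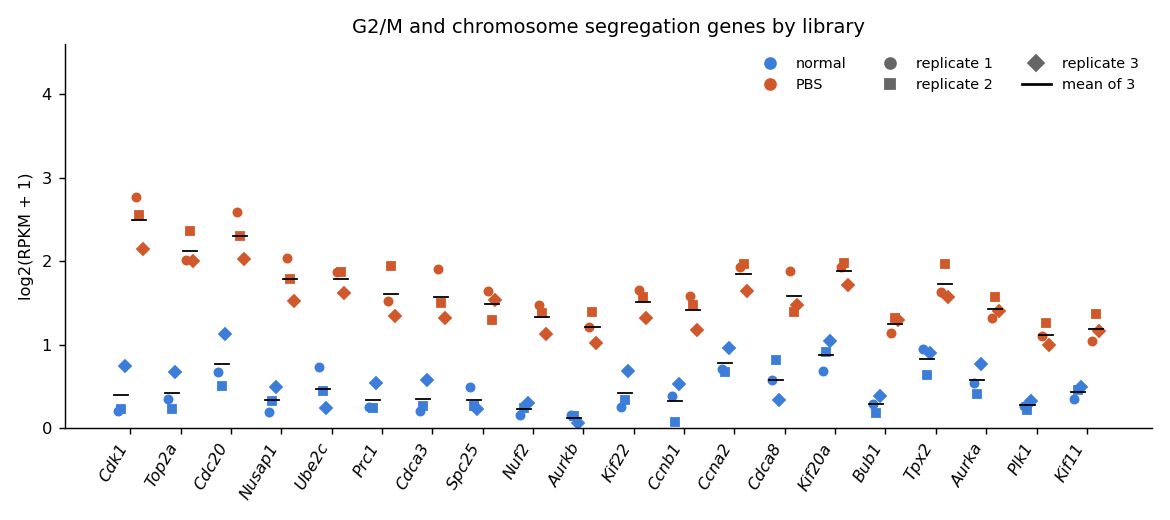
Levels of the 20 tested G2/M and chromosome segregation genes on the log2(RPKM + 1) axis, with 3 normal (blue) and 3 PBS (orange) libraries as points shaped by replicate and the mean of each group as a bar. Each gene lies higher in every PBS library than in every normal library, and genes are ordered by log2 fold change, from Cdk1 at 2.10.

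G2/M genes are known to share promoter letters: the cell cycle homology region, TTTGAA or TTTAAA, bound by complexes that hold the genes silent in resting cells, and CCAAT boxes, bound by NF-Y. The 200 bases before the start are shown for the 4 tested members with the largest changes in which both TTTGAA and CCAAT were found there, 5′ to 3′ on the gene's strand (RefSeq, build GRCr8), with matches on either strand in capitals. They are Cdk1 (chr20:19265093-19265292, plus strand), Top2a (chr10:84473094-84473293, minus strand), Cdc20 (chr5:137255800-137255999, minus strand) and Prc1 (chr1:143659281-143659480, plus strand), the last a microtubule bundler of the dividing cell's midzone.
Cdk1: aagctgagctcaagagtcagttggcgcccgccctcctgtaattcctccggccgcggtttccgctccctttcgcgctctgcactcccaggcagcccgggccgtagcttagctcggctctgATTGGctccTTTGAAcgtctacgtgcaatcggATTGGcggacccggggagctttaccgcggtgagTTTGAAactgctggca
Top2a: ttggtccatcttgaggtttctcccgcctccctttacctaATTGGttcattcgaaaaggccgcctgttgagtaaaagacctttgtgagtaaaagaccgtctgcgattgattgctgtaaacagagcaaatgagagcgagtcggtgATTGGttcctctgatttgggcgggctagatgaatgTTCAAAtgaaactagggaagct
Cdc20: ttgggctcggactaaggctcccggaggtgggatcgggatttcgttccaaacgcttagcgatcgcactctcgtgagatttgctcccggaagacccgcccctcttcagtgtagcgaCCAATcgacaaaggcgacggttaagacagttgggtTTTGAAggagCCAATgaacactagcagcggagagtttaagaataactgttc
Prc1: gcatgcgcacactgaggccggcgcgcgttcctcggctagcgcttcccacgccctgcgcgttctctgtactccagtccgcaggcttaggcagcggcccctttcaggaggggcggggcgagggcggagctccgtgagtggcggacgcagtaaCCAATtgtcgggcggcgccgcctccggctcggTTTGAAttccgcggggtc
The TTTGAA nearest the start began at position -16 in Cdk1, -22 in Top2a, -51 in Cdc20 and -18 in Prc1. Over both strands and windows of 250 bases before to 50 after the start, 17 of the 25 listed genes found in the promoter table held TTTGAA, against 18.3% of all promoters. TTTAAA was in 12 of the 25 (13.6% of all promoters) and CCAAT in 19 (37.5%). TTTGAA and CCAAT occurred together in 14 (7.41%), and 24 held TTTGAA or TTTAAA (28.3%). The search took in all 31 listed genes, tested or not, and says nothing of which factor was bound.

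The PBS libraries did not carry the same mix of these changes. Of the 1157 higher genes, 586 had their highest PBS value in replicate 3, 303 in replicate 1 and 268 in replicate 2. Over all 11124 tested genes, 4063 were highest in replicate 3, 3270 in replicate 1 and 3791 in replicate 2. All 9 preneoplastic enzymes were highest in replicate 3 and lowest in replicate 2, with median deviations from the PBS mean of 0.14, -0.70 and 0.67 on the log2 scale in replicates 1 to 3. None of the 20 G2/M genes was highest in replicate 3, and 15 were lowest there (median deviations 0.08, 0.08 and -0.18). Of 5 called junction genes 4 were highest in replicate 2 (-0.39, 0.41 and -0.02), and the 4 keratins had median deviations of -0.34, 0.41 and -0.09. Of the keratins 2 were highest in replicate 2 (Krt19 and Krt20), while Krt18 was highest in replicate 1 and Krt8 in replicate 3. For bile secretion 6 of 7 were lowest in replicate 1, and for proteoglycans and elastic fibres 7 of 9. Over all 11124 tested genes 5816 were lowest in replicate 1, the library that stood apart by gene length, so its low place is read against that share. A further 3081 were lowest in replicate 2 and 2227 in replicate 3. Genes of a list share the same 3 libraries, so these counts describe the libraries and were not tested.

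**Figure D5:**
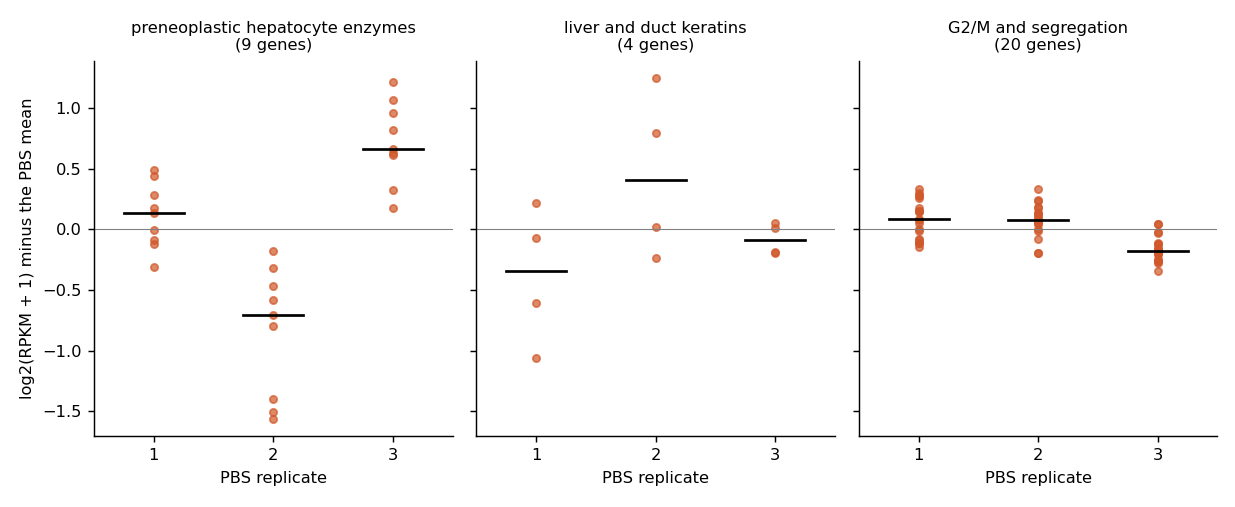
Deviation of log2(RPKM + 1) from the PBS mean in each PBS replicate for called members of 3 gene lists, with each gene as a point and the median as a bar. The preneoplastic hepatocyte enzymes are lowest in replicate 2 (median -0.70) and highest in replicate 3 (0.67), the median of the keratins is highest in replicate 2 (0.41), where 2 of the 4 keratins have their highest value, and the median of the G2/M genes is lowest in replicate 3 (-0.18).

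The HepLPC livers, also cirrhotic, lay between the other groups for most of the markers. A comparison with them would share the PBS libraries, on which the markers are high or low by choice, so only levels are given. Col1a1 was at 0.862, 0.656 and 1.91 RPKM, Krt19 at 1.61, 1.27 and 2.41 RPKM and Mgp at 22.7, 25.7 and 40.8 RPKM in HepLPC replicates 1 to 3. Each of these values was below every PBS library and above every normal library. Gstp1 was at 61.6, 62.9 and 90.8 RPKM and Aldh3a1 at 5.58, 9.58 and 19.4 RPKM, again between the groups. Cdk1 was at 1.57, 2.99 and 2.40 RPKM, below every PBS library and above every normal library. Lepr was listed at 0.241, 0.0142 and 0 RPKM in HepLPC livers, below every normal library.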

How the data were processed

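Total RNA of whole rat liver was sequenced (3 normal, 3 PBS and 3 HepLPC libraries). Per the labels' protocols, RNA was extracted with TRIzol, treated with DNase I and made into libraries with a TruSeq RNA kit. Each deposited file holds RPKM values per gene. HISAT2, StringTie and the human build hg19 are named in the submitters' processing notes, without roles, while the gene rows carry rat symbols. The sources used here do not say how the authors rounded or filtered these RPKM values.

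RPKM steps gave whole reads (tolerance 0.01 reads) for 20130 of 20959 genes above 0 in 3 or more libraries, which gave the depth of each library. Depth limits low genes most: 1 read is a large part of a level near 0. No count model was used.

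The 11124 genes that reached 1 RPKM in 3 or more of 9 libraries were tested on log2(RPKM + 1), which understates the change of low genes. limma 3.58.1 in R 4.3.3 was fitted to all 9 libraries (lmFit, eBayes with a trend, 6 residual degrees of freedom, 2-sided), with Benjamini-Hochberg adjustment over all tested genes. The script was tested on simulated data. Python 3.11.15, numpy 2.4.6, pandas 2.3.3, scipy 1.17.1 and matplotlib 3.10.9 made tables and figures. No pair of replicates agreed within sampling noise (chi-square per degree of freedom 10.3 to 34).

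The members and the 49 gene lists were chosen with earlier results of these data known. Of the list members 11 matched no row. Named genes were the 7 markers; the 25 largest rises and falls among called genes with no overlap and a higher mean of at least 1 RPKM; up to 6 called and 3 uncalled members of each list; the 10 most abundant called genes in each direction; and the 10 widest within PBS. MicroRNA rows were left out. A few genes that the rule names are not reported here. Alternatives were pseudocount 0.1, filters of above 0 and of 5 RPKM, median-of-ratios and quantile scaling, 6 libraries only, no libraries that stood apart, a replicate block, no trend, and each PBS or normal library left out.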

Additional observations from a re-analysis of the deposited data

How the results depend on the processing

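The main counts were 1157 genes higher and 105 lower in PBS than in normal livers. With every gene above 0 RPKM in 3 or more libraries 1861 were higher, and with a filter of 5 RPKM 508 were higher and 60 lower. Rescaling by the median of ratios gave 530 and 276, and quantile normalization 492 and 222. Without PBS replicate 1 and HepLPC replicate 2, the libraries that stood apart, the counts were 2895 and 273. Leaving out 1 library at a time gave 526 to 1007 higher and 36 to 107 lower genes. The counts without PBS replicate 3 were 526 and 36, without normal replicate 1 they were 617 and 51, without normal replicate 2 they were 574 and 46, and without normal replicate 3 they were 596 and 55. The cause of these differences was not tested, except that fewer genes or samples enter the filtered and left-out fits by construction. Of 175 called genes among the 304 named, 101 kept their call in each of the 15 alternatives that could test them, 23 lost it in most of them, and none reversed.

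The replicate block gave 723 higher and 64 lower genes. Same-numbered PBS and normal samples did not deviate together (correlations of -0.255, -0.182 and -0.021), and not every sample correlated best with its own number. These correlations rest on 3 libraries per group, and PBS replicate 1 stood apart by gene length, so they cannot exclude a pairing. Depth limits the low genes, such as Cdk1 with 4, 5 and 19 reads in the normal libraries.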

Other observations

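Of 78 tested genes with ribosomal protein symbols 2 were called higher. These were Rpl7l1 and Rps10l1, whose symbols carry a like suffix, and their calls were lost in 7 and 13 of 15 alternatives. A positive log2 fold change was found for 77 of the 78, with a median of 0.43, against 76.1% of all tested genes and a median of 0.18. After rescaling the median was 0.14 and limma called none of them, and without the libraries that stood apart 17 were higher. Their summed level was 20168 to 22426 RPKM in normal livers and 34003, 23987 and 27121 RPKM in PBS replicates 1 to 3, so it was highest in the library that stood apart by gene length, and the part of that library in the result was not tested. None of 37 tested proteasome genes passed in limma (0 called, 2 at an unadjusted p under 0.05). Of 89 tested nuclear genes of oxidative phosphorylation 1 was higher, with a median of -0.02, and without the libraries that stood apart 2 were higher and 11 lower.

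Some genes differed more among the PBS livers than between the groups. Akr1c2, an aldo-keto reductase, was at 10.9, 7.29 and 294 RPKM in PBS replicates 1 to 3, a range of 5.15 on the log2 scale. It varied in the other groups too, at 8.98, 10.2 and 67.2 RPKM in normal livers (a range of 2.77) and at 174, 18.2 and 15.9 RPKM in HepLPC livers. Igfbp1, a hepatocyte IGF-binding protein that insulin represses, was at 214, 7.91 and 6.27 RPKM in PBS and at 9.72, 55.2 and 12.3 RPKM in normal livers, so a single PBS library carried its high level.

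Beyond the lists, Cd24, a surface protein of progenitor cells, was at 0.950, 0.720 and 0.378 RPKM in normal and at 8.47, 31.3 and 16.2 RPKM in PBS livers, a log2 fold change of 3.38. Pcp4, a calmodulin-binding peptide, was listed at 0 in every normal library and was at 9.96, 4.31 and 15.7 RPKM in PBS livers. Pcp4 reached the level filter only through the PBS libraries, which favours a call. Cyp2c24, a cytochrome P450, was at 0.0950, 0.304 and 0.287 RPKM and then at 12.3, 17.6 and 32.3 RPKM (4.05), in the family whose member Cyp2c11 fell.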
